A study of Homo sapiens with 12 samples.

Results

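Expression of 9 plasminogen activation and coagulation genes, SERPINE2, PLAU, PLAUR, PLAT, F3, TFPI, TFPI2, THBD and F2RL1, was followed in A375, an established human melanoma cell line, among 31585 gene loci with an expression value. Each gene was read from the locus whose symbols include it and, where a symbol stood on several loci, from the one with the highest mean.

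Plasminogen activation turns an inactive circulating precursor into plasmin, the protease that dissolves fibrin clots and cuts matrix proteins around cells. Urokinase (PLAU) and tissue-type plasminogen activator (PLAT) make that cut, the urokinase receptor (PLAUR) holds urokinase at the cell surface, and serpins such as protease nexin-1 (SERPINE2) inactivate both activators. Coagulation starts when tissue factor (F3), a membrane protein, meets circulating factor VII. It is restrained by the tissue factor pathway inhibitor TFPI and by thrombomodulin (THBD), which diverts thrombin toward activating protein C. TFPI2 is a related inhibitor that acts on plasmin, trypsin and other matrix-cutting proteases. F2RL1 encodes protease-activated receptor 2, through which trypsin-like proteases and the tissue factor complex signal to cells, and tumor cells of many kinds, melanoma included, are known to express parts of both systems.

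The A375 cells stably carried the retroviral vector MSCV-IRES-Hygro without insert (Control) or with 1 of 3 forms of the co-activator YAP, and 3 libraries were sequenced for each group, 12 in all. YAP-S127A lacks the serine whose phosphorylation keeps YAP out of the nucleus. YAP-S127A,S94A also lacks a serine needed to bind the TEAD transcription factors. YAP-2SA carries S127A and S381A, the latter removing a serine that takes part in YAP degradation. A field of the YAP-2SA sample records also lists S94A, but neither their titles nor the list of vectors has it, and the titles were followed. All groups derive from 1 cell line, and it is not stated whether the cells of a group were a pool or a clone or whether its 3 RNA samples came from separate transductions, so that p-values measure the spread between these samples. Since RNA came from whole cultures, fewer cells that express a gene and less RNA per cell cannot be told apart. The comparisons ask which of these genes differ with each active YAP, and whether the difference needs the TEAD-binding residue.

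Levels are given as FPKM, a count of sequenced fragments scaled by transcript length and library size, which allows genes of different length to be set beside each other. Summed over all loci, a library held 790865 to 901558 FPKM, with 20161 to 20656 loci above 0, and the read depth behind these values is unknown. YAP1 was 129.7 to 187.3 FPKM in the libraries of the 3 YAP groups and 34.1 and 33.0 FPKM in Control replicates 1 and 2. The library labelled Control replicate 3 had 171.8 FPKM of YAP1, and results that depend on it are given with and without it. For the members themselves it stayed near the other Control libraries, with F3 at 1.28 FPKM against 1.26 and 1.19. Of 8 melanocyte lineage markers, MITF, SOX10 and S100B reached 1 FPKM in some library, whereas MLANA, PMEL, TYR, TYRP1 and DCT, the pigment cell genes proper, stayed below 1 in every library, none of them at 0 throughout. The summed FPKM of the 8 markers was 280.7 to 344.7 in Control, 231.1 to 300.4 in YAP-S127A, 300.9 to 335.7 in YAP-S127A,S94A and 39.6 to 49.8 in YAP-2SA, and its part in the results below was not tested. Within this sum SOX10 went from a mean of 263 FPKM in Control to 6.16 in YAP-2SA and S100B from 46.9 to 0.807, whereas MITF went the other way, from 8.59 to 35.0 (all 3 called, limma giving them an adjusted p of 1.5e-09, 1.1e-09 and 0.000126). Of the other markers, 4 fibroblast genes summed to 1.68 to 2.94 FPKM in Control, 8.05 to 10.6 in YAP-S127A, 1.85 to 2.14 in YAP-S127A,S94A and 31.7 to 38.9 in YAP-2SA, with COL1A1 and LUM over 1 FPKM and DCN and COL1A2 below it. For 5 endothelial genes the sums were 0.258 to 0.644 in Control, 1.60 to 1.70 in YAP-S127A, 0.444 to 0.578 in YAP-S127A,S94A and 2.94 to 4.73 in YAP-2SA, carried above 1 FPKM by TIE1 alone, while PECAM1, CDH5, TEK and CLDN5 were below 1 FPKM in every library. For 4 epithelial genes the sums were 6.28 to 7.65, 6.50 to 11.3, 7.11 to 7.42 and 2.13 to 2.19 in the same order, with KRT5 and KRT14 over 1 FPKM, and in YAP-2SA against Control KRT14 was called lower (6.87 to 0.434 FPKM) but KRT5 higher (0.0282 to 1.56 FPKM). KRT5 reached 1 FPKM only in the YAP-2SA libraries (1.37 to 1.67), so that it was tested only through the group where it was high. The 3 leukocyte genes summed to at most 0.708 FPKM, and the 4 platelet genes to at most 0.135 FPKM with 3 at 0 in every library. The part of the fibroblast, endothelial and epithelial genes in the results was not tested either.

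Sequence before the start site is shown for the members in which a motif search found a match, whatever the size of their differences below. Windows of the RefSeq promoter table (GRCh38.p14, 250 bases before to 50 after each start) were used for 7 of the 9 members. No window was used for PLAT or THBD, so neither was searched. The windows used were 9 in all. Each was searched on both strands for GGAATG, the core recognized by TEAD factors, and TGANTCA, the AP-1 site, and no match of 1 motif overlapped a match of the other. GGAATG was found in 14.0% of all 35116 windows of this length and TGANTCA in 7.71%. Capitals mark the matches, and GRCh37 positions come from an exact match of each window to that assembly. F3 holds TGAATCA 223 bases before the start and TGAGTCA 210 bases before it, here in the 250 bases of chr1:95007316-95007565 on the minus strand. TFPI2 holds TGAATCA 87 bases before its start, in chr7:93520066-93520315 on the minus strand. F2RL1 holds CATTCC, the reverse complement of GGAATG, 194 bases before the start its window uses, in chr5:76114605-76114757 on the plus strand. The 153 bases shown end 97 bases before that start, because transcripts of the gene start further upstream. PLAUR holds TGAGTCA 186 bases before its start, shown as the 30 bases of chr19:44174489-44174518 on the minus strand because transcripts of the gene start further upstream.
F3: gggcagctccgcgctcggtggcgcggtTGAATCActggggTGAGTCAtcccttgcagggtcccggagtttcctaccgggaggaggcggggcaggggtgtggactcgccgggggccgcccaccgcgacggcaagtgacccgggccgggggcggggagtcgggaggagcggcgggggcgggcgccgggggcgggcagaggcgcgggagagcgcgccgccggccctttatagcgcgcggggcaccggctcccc
TFPI2: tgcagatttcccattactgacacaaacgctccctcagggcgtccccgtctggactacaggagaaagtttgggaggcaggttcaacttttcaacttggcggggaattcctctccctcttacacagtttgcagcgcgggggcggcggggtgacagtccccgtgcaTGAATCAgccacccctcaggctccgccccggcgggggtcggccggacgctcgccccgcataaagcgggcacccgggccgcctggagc
F2RL1: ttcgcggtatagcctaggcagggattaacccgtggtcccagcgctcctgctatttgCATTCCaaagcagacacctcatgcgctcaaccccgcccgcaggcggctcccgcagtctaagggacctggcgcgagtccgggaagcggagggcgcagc
PLAUR: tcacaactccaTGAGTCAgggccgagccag
Neither motif was in the windows of SERPINE2, PLAU or TFPI, which says only that these letters are not in those windows. A match is a description of the sequence and not a site bound in these cells.

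Among the 9 genes, the coagulation initiator F3 was higher with either active YAP, the inhibitor TFPI and the receptor F2RL1 were higher with YAP-2SA, and the serpin SERPINE2 was lower with YAP-2SA. TFPI was also called higher with YAP-S127A, but that call was lost with no filter on low values and without any 1 of 5 of the 6 libraries compared. None of the members passed the test with YAP-S127A,S94A. Loci with at least 1 FPKM in at least 3 libraries, 15055 in all, were tested with limma across the 12 libraries, and a gene is called where its Benjamini-Hochberg adjusted p is under 0.05 and the ratio of group mean FPKM is over 2 or its inverse. Of the members 7 were tested, while PLAU and THBD fell below the filter, and TFPI passed it only through the YAP-S127A and YAP-2SA libraries. With YAP-2SA against Control, 3 of the 7 were called higher and 1 lower, where 7.59% of all tested loci were called higher and 7.86% lower, and all 7 had an adjusted p under 0.05, as did 42.3% of loci. With YAP-S127A against Control, 2 were called higher and none lower (2.07% and 0.405% of loci), and 3 had an adjusted p under 0.05 (6.31% of loci). With YAP-S127A,S94A against Control, 0 were called in either direction (0.0797% and 0.093% of loci) and 0 had an adjusted p under 0.05 (0.179% of loci) in limma, while PLAUR and TFPI2 had unadjusted p values of 0.0274 and 0.0296. The median log2 fold change over the 7 was 0.89 in the first of these comparisons, 0.09 in the second and 0.09 in the third, beside medians over all loci of 0.01, 0.00 and 0.01. These 3 comparisons share the Control libraries. All log2 fold changes were taken after adding 1 to the FPKM, so those of low genes are understated, and the ratios of mean FPKM have nothing added.

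**Figure D1:**
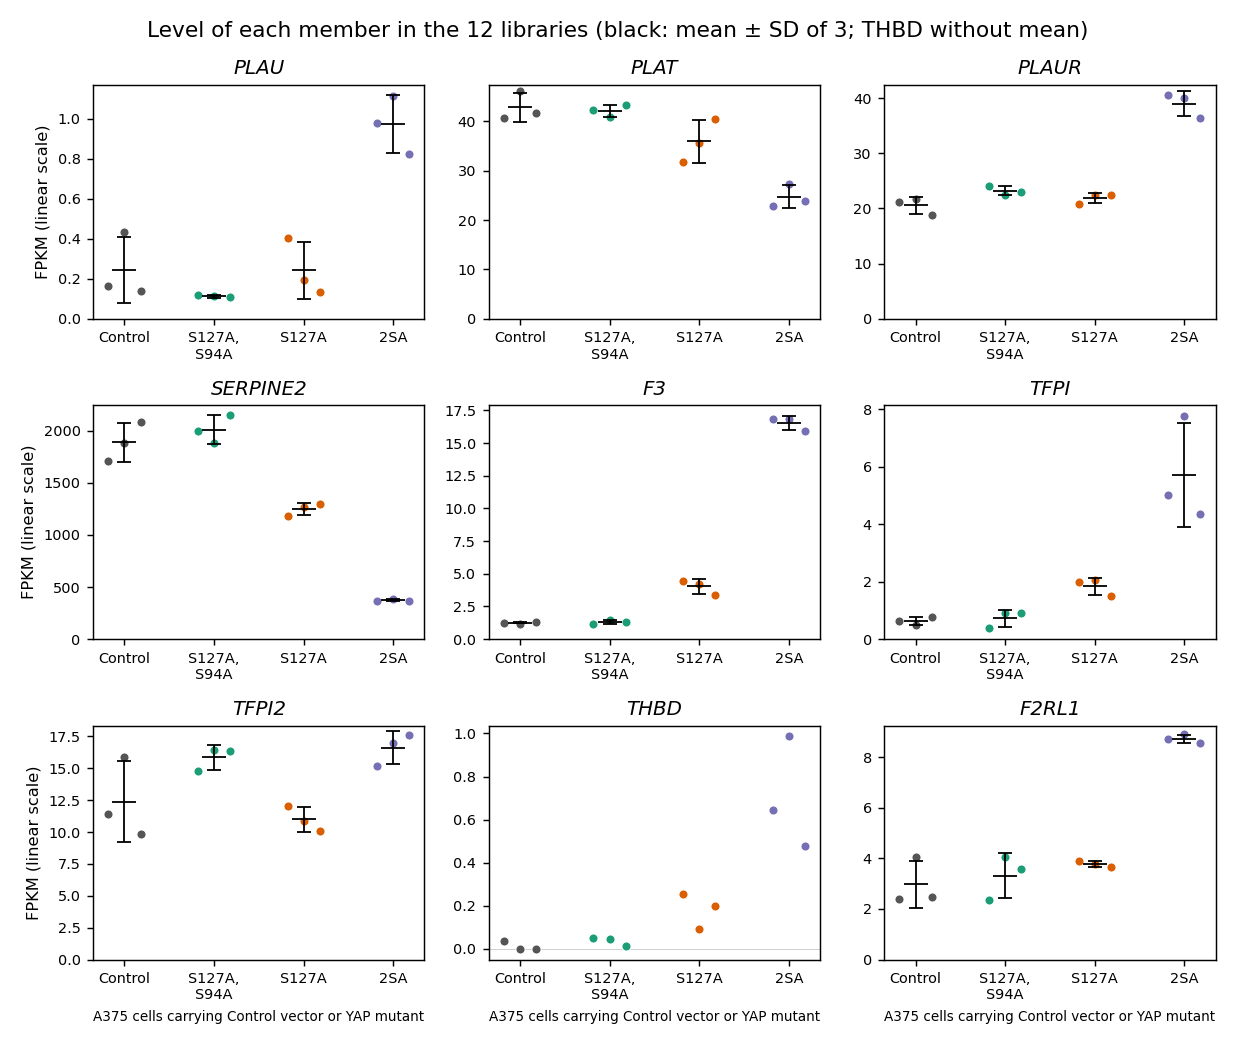
FPKM (linear axis from 0) of each of the 9 genes in the 12 libraries, with 1 colored point per library, from left replicate 1, 2 and 3 of Control, YAP-S127A,S94A, YAP-S127A and YAP-2SA, and black bars for the mean and SD of 3 libraries except for THBD. F3 and TFPI step up from YAP-S127A to YAP-2SA, SERPINE2 steps down, and the YAP-2SA points of PLAUR and F2RL1 lie above all others.

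F3, tissue factor, was at 1.26, 1.19 and 1.28 FPKM in the Control libraries, 1.13, 1.44 and 1.32 in YAP-S127A,S94A, 4.48, 4.25 and 3.39 in YAP-S127A and 16.9, 16.9 and 15.9 in YAP-2SA. The YAP-S127A libraries stood above all Control and YAP-S127A,S94A libraries, which overlapped, and the YAP-2SA libraries stood above those of YAP-S127A. Against Control, mean F3 was 13.3 times as high in YAP-2SA (log2 fold change 2.97, SE 0.09, adjusted p 1.9e-09 from limma) and 3.24 times as high in YAP-S127A (log2 fold change 1.16, SE 0.09, adjusted p 3.0e-05). Both constructs also differed from each other, with F3 4.10 times as high in YAP-2SA as in YAP-S127A (adjusted p 1.7e-07). Without the library labelled Control replicate 3, the log2 fold changes of F3 were 2.98 in YAP-2SA and 1.17 in YAP-S127A. F3 lies at chr1:94994729-95007315 on the minus strand of GRCh37.

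TFPI, a Kunitz-type inhibitor of the tissue factor and factor VII complex and of factor X, was at 0.617, 0.499 and 0.784 FPKM in Control and 0.385, 0.911 and 0.893 in YAP-S127A,S94A. It was at 1.97, 2.06 and 1.5 FPKM in YAP-S127A and 5.02, 7.76 and 4.35 in YAP-2SA. As for F3, the YAP-2SA libraries lay above the YAP-S127A libraries and these above the rest, although TFPI varied more between the YAP-2SA libraries. Mean TFPI was 9.02 times the Control mean in YAP-2SA (log2 fold change 2.01, SE 0.19, adjusted p 9.8e-06) and 2.91 times it in YAP-S127A (log2 fold change 0.80, SE 0.19, adjusted p 0.0333). The YAP-S127A call on TFPI depended on single libraries: its adjusted p was 0.0781, 0.115 and 0.0615 without Control replicates 1, 2 and 3, 0.0983 and 0.0915 without YAP-S127A replicates 1 and 2, and 0.0546 with no filter on low values. Between YAP-2SA and YAP-S127A the log2 fold change of TFPI was 1.21 (SE 0.19, adjusted p 0.00067). F3 exceeded TFPI in every library, by a factor of 1.48 to 3.66. The exons of TFPI, chr2:188328957-188430487 on the minus strand, share 118 bases with the antisense gene CALCRL-AS1, and whether the counting used strand is not stated.

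TFPI2, a related inhibitor of plasmin, trypsin and other matrix-cutting proteases, had another order of groups than TFPI. It was 11.4, 15.9 and 9.84 FPKM in Control, 14.8, 16.5 and 16.4 in YAP-S127A,S94A, 12.01, 10.9 and 10.1 in YAP-S127A and 15.1, 17.0 and 17.6 in YAP-2SA. Control replicate 2 lay among the YAP-2SA libraries, so that these groups overlapped, whereas the YAP-S127A libraries lay below all those of YAP-S127A,S94A and YAP-2SA. The log2 fold change of TFPI2 in YAP-2SA against Control was 0.42 (SE 0.14, adjusted p 0.0355, ratio 1.34), and its adjusted p rose to 0.1002 without Control replicate 1, 0.1295 without Control replicate 3, 0.0898 without YAP-2SA replicate 2 and 0.106 without YAP-2SA replicate 3, and to 0.0932 in a fit of only these groups. Against YAP-S127A it was 0.56 (SE 0.14, adjusted p 0.0122, ratio 1.51). In YAP-S127A against YAP-S127A,S94A the adjusted p was 0.0515 with a log2 fold change of -0.49, and it fell to 0.00754 without Control replicate 2 and 0.0275 without Control replicate 3. It was also 0.0231 in a fit of only these groups, 0.0384 with median-ratio scaling and 0.0459 with an FPKM of at least 5. Under the other alternatives it stayed over 0.05, at most at 0.147. TFPI2 lies at chr7:93514708-93520065 and shares 44 exon bases with GNGT1 on the other strand.

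THBD, the thrombin receptor thrombomodulin, encoded by 1 exon at chr20:23026270-23030309, was read from a locus that the table also names AX747264, and it was low throughout. It was 0.0360, 0 and 0 FPKM in Control, 0.0497, 0.0446 and 0.0154 in YAP-S127A,S94A, 0.255, 0.0920 and 0.198 in YAP-S127A and 0.643, 0.986 and 0.478 in YAP-2SA. The YAP-2SA libraries did not overlap any others, and those of YAP-S127A lay above all Control libraries. With no filter on low values, where 23437 loci were tested, the log2 fold change of THBD in YAP-2SA against Control was 0.74 (SE 0.09, adjusted p 0.000148 from limma), and in YAP-S127A against Control 0.22 (SE 0.09, adjusted p 0.269). A value of 0 can be a failed estimate, so no ratio to Control is given for THBD.

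F2RL1, a receptor switched on by proteolytic cleavage of its own extracellular end, was at 2.41, 4.05 and 2.45 FPKM in Control, 2.34, 4.04 and 3.58 in YAP-S127A,S94A and 3.91, 3.78 and 3.67 in YAP-S127A. In YAP-2SA it was at 8.71, 8.90 and 8.56 FPKM, above every other library, while the other 3 groups overlapped. Its mean was 2.94 times the Control mean (log2 fold change 1.32, SE 0.17, adjusted p 0.000109) and 2.30 times the YAP-S127A mean (log2 fold change 1.02, SE 0.17, adjusted p 0.00101). Against Control, YAP-S127A gave a log2 fold change of 0.30 for F2RL1 with a 95% interval of -0.08 to 0.67 and an adjusted p of 0.389. Its GRCh37 position is chr5:76114758-76131140 on the plus strand, and 304 of its exon bases are shared with an antisense gene.

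SERPINE2 was by far the highest of the 9, and ranked 75 among the 31585 loci by mean FPKM in Control. It was at 1709, 1882 and 2083 FPKM in Control, 2002, 1880 and 2155 in YAP-S127A,S94A, 1182, 1268 and 1297 in YAP-S127A and 369.4, 383.5 and 364.6 in YAP-2SA, where its rank was 315. The YAP-2SA libraries lay below the YAP-S127A libraries and these below all Control libraries, whereas Control and YAP-S127A,S94A overlapped. Mean SERPINE2 was 5.08-fold lower in YAP-2SA than in Control (log2 fold change -2.34, SE 0.08, adjusted p 4.8e-09). In YAP-S127A its log2 fold change was -0.60 (SE 0.08, adjusted p 0.00146), with a ratio of 0.660 that did not reach the fold threshold. SERPINE2 changed by -2.27 and -0.52 on that scale when the library labelled Control replicate 3 was left out. The gene occupies chr2:224839762-224904035 on the minus strand.

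PLAT, the activator SERPINE2 can inactivate, was at 40.8, 46.2 and 41.7 FPKM in Control, 42.2, 40.9 and 43.4 in YAP-S127A,S94A, 31.8, 35.6 and 40.5 in YAP-S127A and 22.9, 27.3 and 23.9 in YAP-2SA. The YAP-2SA libraries were the lowest without overlap, and the highest YAP-S127A library came just under the lowest Control library. The log2 fold change in YAP-2SA against Control was -0.77 (SE 0.09, adjusted p 5.7e-05), a ratio of 0.576 that was not past the fold threshold. In YAP-S127A it was -0.25 (SE 0.09, adjusted p 0.156). Within each library SERPINE2 exceeded PLAT, by 40.7 to 50.0 times in Control, 46.0 to 49.7 in YAP-S127A,S94A, 32.0 to 37.1 in YAP-S127A and 14.0 to 16.1 in YAP-2SA. The ratio was thus lower in every YAP-2SA library than in any other.

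PLAUR, the membrane-anchored urokinase receptor at chr19:44150247-44174699, was at 21.2, 21.6 and 18.9 FPKM in Control, 24.1, 22.4 and 23.1 in YAP-S127A,S94A, 20.8, 22.4 and 22.4 in YAP-S127A and 40.6, 40.0 and 36.5 in YAP-2SA. The YAP-2SA libraries lay above all others, and the YAP-S127A libraries overlapped those of Control. The log2 fold change of PLAUR was 0.89 in YAP-2SA against Control (SE 0.07, adjusted p 1.4e-06, ratio 1.90) and 0.81 against YAP-S127A (SE 0.07, adjusted p 5.4e-06, ratio 1.79), both short of the fold threshold. In YAP-S127A against Control it was 0.09 with a 95% interval of -0.06 to 0.23.

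PLAU, urokinase itself, was below the filter although its receptor was well expressed. It was at 0.162, 0.432 and 0.136 FPKM in Control, 0.119, 0.111 and 0.106 in YAP-S127A,S94A, 0.402, 0.193 and 0.131 in YAP-S127A and 0.979, 1.11 and 0.825 in YAP-2SA. The YAP-2SA libraries were above all others, and those of Control and YAP-S127A overlapped. With no filter, the log2 fold change of PLAU was 0.67 in YAP-2SA against Control (SE 0.10, adjusted p 0.000586 from limma) and 0.00 in YAP-S127A against Control (SE 0.10). PLAU, at chr10:75668935-75677254 on the plus strand, shares 915 exon bases with C10orf55 on the other strand, which was listed at 0.0490 FPKM or less in every library.

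**Figure D2:**
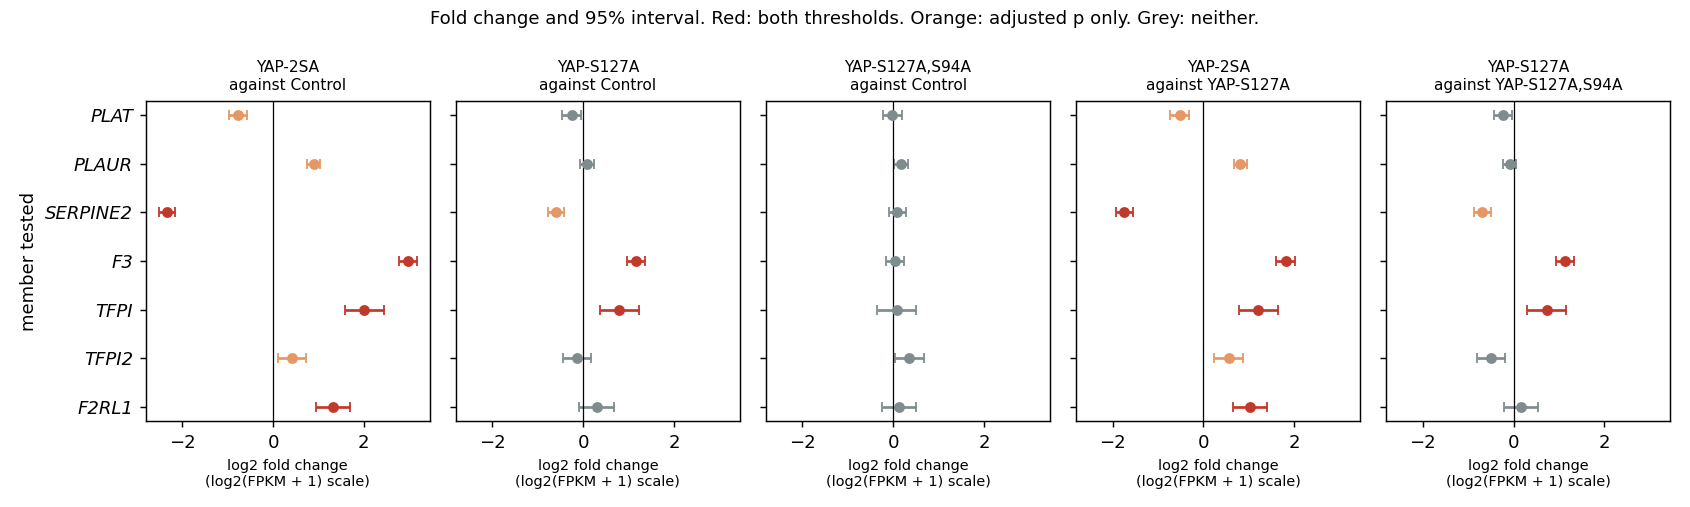
Log2 fold changes on the log2(FPKM + 1) scale of the 7 genes tested (points) with 95% intervals (lines) in 5 comparisons, red where both the adjusted p and the fold threshold were met, orange for the adjusted p alone and grey for neither. F3, TFPI, F2RL1 and SERPINE2 are red in YAP-2SA against Control, F3 and TFPI in YAP-S127A against Control, and none in YAP-S127A,S94A against Control.

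The order of the 9 levels changed between groups. In Control it ran SERPINE2, PLAT, PLAUR, TFPI2, F2RL1, F3, TFPI, PLAU and THBD, with no overlap of libraries between neighbours. In YAP-2SA, PLAUR stood above PLAT, and F3 at 16.6 ± 0.529 FPKM (SD, n = 3) reached TFPI2 at 16.6 ± 1.3, whose libraries overlapped with it. F3 thus passed F2RL1, at 8.72 ± 0.169 FPKM, and TFPI followed at 5.71 ± 1.81. PLAU and THBD remained the lowest of the 9 in YAP-2SA, where the range of 1 overlapped that of the other.

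**Figure D3:**
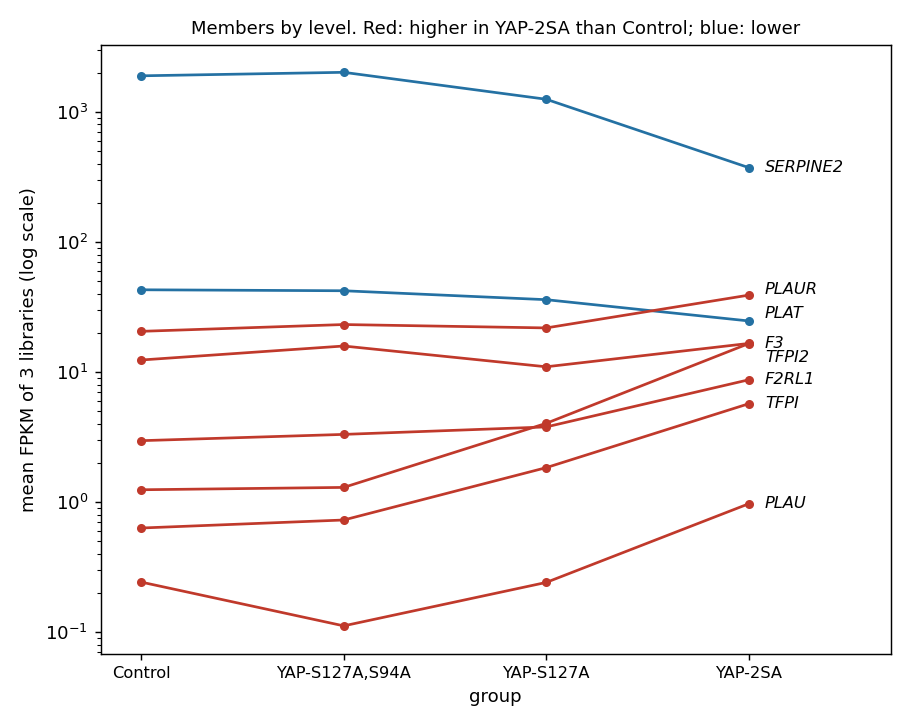
Mean FPKM of 3 libraries (log axis) of 8 members in the 4 groups, joined by lines that follow each gene and carry no other meaning, red for genes higher and blue for genes lower in YAP-2SA than in Control (THBD is left out because it was listed at 0 in some libraries). F3 climbs from 1.25 FPKM in Control past F2RL1 to meet TFPI2, and PLAUR and PLAT change places.

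The dependence on the TEAD-binding residue was read from YAP-S127A set against YAP-S127A,S94A, since these differ in S94A. By the titles, no group joined S94A to S381A. Against Control, F2RL1, PLAUR, PLAT and TFPI2 passed the adjusted p only with YAP-2SA, so for those differences the dependence could not be read. F3 was 3.11 times as high with the TEAD-binding form (log2 fold change 1.13, SE 0.09, adjusted p 2.9e-05). TFPI, which passed the filter only through the groups where it was high, was 2.53 times as high (log2 fold change 0.73, SE 0.19, adjusted p 0.0360), and its adjusted p was 0.0563 with no filter and 0.0528 in a fit of only these groups. SERPINE2 had a log2 fold change of -0.69 (SE 0.08, adjusted p 0.000435, ratio 0.621), not past the fold threshold. Of the 7 members tested 2 were called higher and 0 lower, beside 2.54% and 0.95% of loci, and 3 had an adjusted p under 0.05, beside 10.7%. The adjusted p of TFPI was between 0.0512 and 0.123 without YAP-S127A replicate 1 or 2, without any 1 of the YAP-S127A,S94A libraries or without YAP-2SA replicate 1, the last of which enters only through the shared estimate of spread. Against Control, YAP-S127A,S94A gave 95% intervals of the log2 fold change of -0.17 to 0.23 for F3, -0.35 to 0.49 for TFPI and -0.09 to 0.27 for SERPINE2. None of these 3 intervals holds the log2 fold change that the gene had with YAP-S127A.

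YAP-2SA and YAP-S127A were compared as well, since they differ in the added S381A. Of the 7 members, F3, TFPI and F2RL1 were called higher and SERPINE2 lower in YAP-2SA (5.17% of loci higher and 5.94% lower), and all 7 had an adjusted p under 0.05 (32.8% of loci). The log2 fold change of SERPINE2 was -1.74 (SE 0.08, adjusted p 1.0e-07), that of F3 1.81 (SE 0.09) and that of PLAT -0.52 (SE 0.09, adjusted p 0.00143). This comparison shares the YAP-S127A libraries with the preceding one. YAP1 mRNA differed by a log2 fold change of -0.28 (SE 0.49, adjusted p 0.706 from limma) between YAP-2SA and YAP-S127A. That SE is estimated across all 12 libraries and so takes in the library labelled Control replicate 3. By library, YAP1 was 158.6 to 187.3 FPKM in YAP-S127A and 129.7 to 149.1 in YAP-2SA, without overlap.

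Of 55 further genes of plasminogen activation, coagulation, protease-activated receptors and cell-surface serine proteases, 26 were tested. In YAP-2SA against Control 6 were called higher and 7 lower, and 12 and 9 had an adjusted p under 0.05 in these directions, beside 7.59% and 7.86% of all loci called higher and lower and 42.3% with an adjusted p under 0.05. Of the 7 lower, MRC2 was not called without the library labelled Control replicate 3. SERPIND1 and SERPINI1 passed the filter only through Control and YAP-S127A,S94A libraries, the groups where they were high. A2M, SERPINA1 and HPN stayed below 1 FPKM in every YAP-2SA library and so also passed the filter only through other groups. In YAP-S127A against Control 0 were higher and 1, SERPIND1, was lower (2.07% and 0.405% of loci), with 2 and 2 by the adjusted p of limma (6.31% of loci). In YAP-S127A,S94A against Control 0 were called (0.0797% and 0.093% of loci), and 0 passed the adjusted p of limma (0.179%). In YAP-2SA against YAP-S127A 3 were higher and 5 lower (5.17% and 5.94% of loci), and in YAP-S127A against YAP-S127A,S94A 1 was higher (THBS1) and 3 lower (SERPIND1, SERPINA1 and SERPINA5), where 2.54% and 0.95% of loci were called. Plasminogen (PLG) itself was at most 0.14 FPKM in any library. Prothrombin (F2) was at most 0.0367 FPKM and factor VII (F7) at most 0.1004, and the fibrinogen chains were below the filter, whereas factor XII (F12), the zymogen of the contact pathway, passed it at 1.76 ± 0.504 FPKM in Control and 2.62 ± 0.242 in YAP-2SA (SD, n = 3, adjusted p 0.0255 from limma, ratio 1.49, under the fold threshold).

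Of the 16 genes of the plasminogen system, 10 were tested, and in YAP-2SA against Control 2 were called higher and 3 lower (7.59% and 7.86% of loci) with a median log2 fold change of 0.27, beside 0.01 over all loci. ANXA2, a cell-surface docking site for plasminogen and PLAT whose locus also carries DJ439519, was 265 ± 17.5 FPKM in Control, 339 ± 31.0 in YAP-S127A and 636 ± 18.1 in YAP-2SA (SD, n = 3), with a log2 fold change of 1.26 (SE 0.08, adjusted p 4.5e-07). Its partner S100A10 had a log2 fold change of 0.56 (adjusted p 1.3e-05), a ratio of 1.48 under the fold threshold. LRP1, an endocytic receptor that clears activator and inhibitor complexes, had a log2 fold change of 1.58 (SE 0.52, adjusted p 0.0311), with 4.70 and 4.18 FPKM in Control replicates 1 and 2, 22.0 in the library labelled Control replicate 3 and 19.5 to 33.1 in YAP-2SA. The Control and YAP-2SA groups thus overlapped through that library, without which the log2 fold change of LRP1 was 2.27 (SE 0.33, adjusted p 0.000514). With it, the adjusted p of LRP1 was between 0.0706 and 0.112 without Control replicate 1 or 2 or YAP-2SA replicate 2 or 3, and 0.0729 in a fit of only these 2 groups. Lower was A2M, a broad protease trap, at 2.05 ± 1.25 FPKM in Control and from 0 to 0.0585 in YAP-2SA (log2 fold change -1.48, SE 0.25, and -3.88 when 0.1 in place of 1 was added). Without the library labelled Control replicate 3, the log2 fold change of A2M was -1.17 (SE 0.18). A2M passed the filter only through libraries of the other groups, where it was higher. Also lower were MRC2, a collagen receptor that associates with PLAUR (log2 fold change -0.98, SE 0.18, 2.13-fold lower in mean FPKM), and SERPINI1, neuroserpin, an inhibitor of PLAT (log2 fold change -0.64, SE 0.16, 3.43-fold lower in mean FPKM). MRC2 was 17.0 to 31.0 FPKM in Control and 9.33 to 11.4 in YAP-2SA. Without the library labelled Control replicate 3, its log2 fold change was -0.73 (SE 0.10, adjusted p 0.000379 from limma). The call of MRC2 was then lost, as its ratio of mean FPKM did not reach the fold threshold. SERPINI1, at most 0.826 FPKM in YAP-S127A and 0.421 in YAP-2SA, passed the filter only through Control and YAP-S127A,S94A libraries.

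Of the 28 coagulation factors and inhibitors, 12 were tested and in YAP-2SA 2 were called higher and 3 lower (7.59% and 7.86% of loci), with a median log2 fold change of 0.09, beside 0.01 over all loci. PROS1, protein S, the cofactor of activated protein C, was 3.60 ± 0.387 FPKM in Control and 12.5 ± 1.19 in YAP-2SA (log2 fold change 1.55, SE 0.13, adjusted p 5.2e-06). PROCR, the receptor that presents protein C to thrombomodulin-bound thrombin, was 15.2 ± 0.474 FPKM in Control, 14.9 ± 0.946 in YAP-S127A and 34.5 ± 4.34 in YAP-2SA (log2 fold change 1.12, SE 0.10, adjusted p 5.9e-06). Of the protein C arm PROC itself was below the filter. The 3 lower genes were serpins. SERPINA5, the protein C inhibitor, read from a locus shared with SERPINA3 so that the level of SERPINA5 alone cannot be told, fell by 6.48 on the log2 scale (SE 0.23). SERPIND1, heparin cofactor II, fell by 0.90 on that scale (SE 0.11), which is 9.65-fold lower in mean FPKM, and SERPINA1, the elastase inhibitor, by 0.71 (SE 0.15), which is 3.34-fold lower. SERPIND1 was at most 0.604 FPKM in YAP-S127A and 0.140 in YAP-2SA, and SERPINA1 at most 0.470 in YAP-2SA. Both thus passed the filter only through groups where they were higher, which for SERPIND1 were Control and YAP-S127A,S94A.

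Of the other protease-activated receptors, F2R and F2RL2 were also called higher in YAP-2SA than in Control. F2R, protease-activated receptor 1, was 23.7 ± 1.60 FPKM in Control, 23.4 ± 2.82 in YAP-S127A,S94A, 29.5 ± 1.62 in YAP-S127A and 55.7 ± 3.998 in YAP-2SA, and its log2 fold change in YAP-2SA was 1.20 (SE 0.09, adjusted p 1.5e-06). F2RL2, receptor 3, was 1.54 ± 0.174, 1.36 ± 0.0888, 2.40 ± 0.0638 and 5.53 ± 0.707 FPKM in the same groups, and its log2 fold change in YAP-2SA was 1.36 (SE 0.09, adjusted p 7.1e-07). Of the 3 other receptors listed, F2RL3 was below the filter. Of the 8 cell-surface serine proteases and inhibitors 2 were tested: HPN, hepsin, from a locus shared with LOC100128675, went from 28.3 ± 4.70 FPKM in Control to 0.481 ± 0.0877 in YAP-2SA (log2 fold change -4.29, SE 0.14, adjusted p 2.8e-09), and FURIN, a proprotein convertase, had a log2 fold change of -0.80 (SE 0.08, ratio 0.563).

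**Figure D4:**
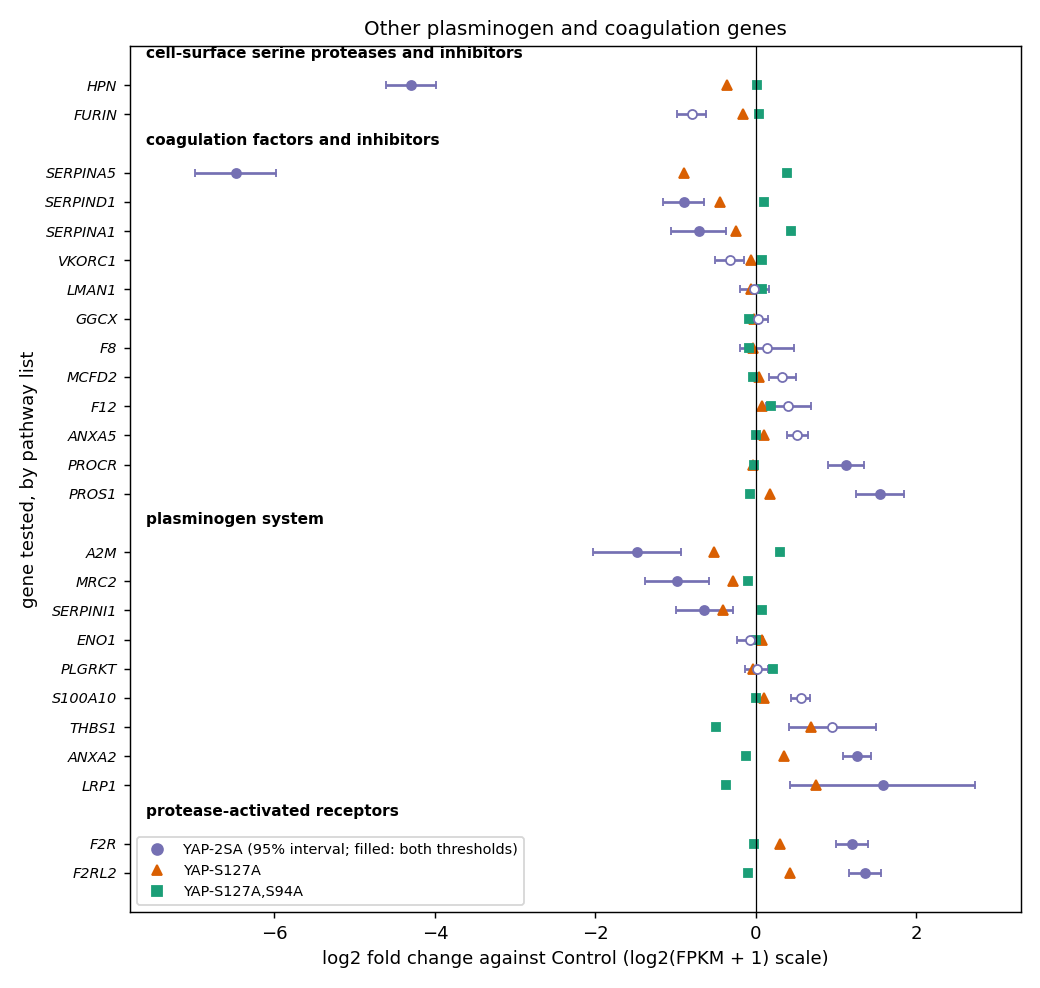
Log2 fold changes against Control on the log2(FPKM + 1) scale of other pathway genes tested, by list, for YAP-2SA (circles with 95% intervals, filled where both thresholds were met), YAP-S127A (triangles) and YAP-S127A,S94A (squares). F2R and F2RL2 lie right of 0 in YAP-2SA, the SERPINA5 locus and HPN lie furthest left, and no gene passed the adjusted p threshold for the squares.

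Correlations over the 12 libraries describe how the members ran together, and they follow the group differences because the libraries share those groups. F3 and TFPI had a Pearson correlation of 0.978 in log2(FPKM + 1), F3 and SERPINE2 of -0.987 and SERPINE2 and PLAT of 0.961, while TFPI2 stayed between -0.387 and 0.609 with the other 8. Among about 2160 single-symbol loci whose group means spanned at least 1 on the log2 scale, the most similar to F3 were ACO1 and TMEM130 (0.997 each), and to TFPI they were WNT7A and GGT5 (0.984 each). For SERPINE2 they were PRRX1 and AMACR (0.998 each), for PLAT GGT7 (0.984) and ACP6 (0.981), for PLAUR VTRNA1-3 (0.975) and LLGL2 (0.974), and for F2RL1 RAC2 (0.980) and DUSP5 (0.967). For TFPI2 the closest were SNORD24 (0.859) and SCARNA22 (0.834).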

How the data were processed

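RNA from A375 cells was sequenced by the authors, 3 libraries per group. Per the paper's methods, reads were aligned to hg19 with UCSC known genes using Bowtie2 2.0.0 (a beta release) and TopHat 2.0.4 and summarised with Cufflinks 2.0.2. The authors deposited 1 table of log2(FPKM + 1) values for 31588 entries, of which 3 identical ones were removed, and the FPKM were recovered as 2 to the deposited log2 value, minus 1. These are not counts, whole reads could not be recovered from their steps, and depth limits the precision by an unknown amount. Strand and the division of reads that align to several places are not stated.

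Loci with at least 1 FPKM in at least 3 libraries were fitted on the deposited log2 values with limma 3.58.1 in R 4.3.3, with all 12 libraries, 1 mean per group and an intensity trend. Every adjusted p is from limma with Benjamini-Hochberg adjustment over all loci tested, 15055 with this filter. Calls needed both an adjusted p under 0.05 and more than a 2-fold difference in group mean FPKM, in either direction. The fit was tested on simulated data. Figures were drawn with matplotlib 3.10.9 in Python 3.11.15.

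The members and lists were chosen with earlier results of these data known. Named were the 9 members, YAP1, the genes of 4 pathway lists called in YAP-2SA against Control, and the 2 loci most correlated with each member tested. Other genes named beside them (S100A10, FURIN, THBS1, PLG, F2, F7, F12, PROC, F2RL3, IQGAP2) were chosen after their values were seen. 1 gene of the lists is not reported here by itself. PLGRKT was matched by its older symbol C9orf46. Gene positions and overlaps come from GENCODE on GRCh37. Replicate numbers did not pair the libraries. Alternatives were another pseudocount, other filters, median-ratio scaling, a fit without an intensity trend, a replicate block, a fit restricted to the groups compared, other fold thresholds and each library left out.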

Additional observations from a re-analysis of the deposited data

How the results depend on the processing

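The 4 members called in YAP-2SA against Control and the 4 in YAP-2SA against YAP-S127A became 7 each with no fold threshold, 6 each with no filter, where PLAU and THBD were added, and 3 each with an FPKM of at least 5, which leaves TFPI untested. They were 4 under the other alternatives and without any 1 library. In YAP-S127A against Control 2 members were called, and 1 with no filter, with an FPKM of at least 5 or with the fold on the log2(FPKM + 1) scale. In YAP-S127A against YAP-S127A,S94A 2 were called, and 1 under those settings or with only the libraries compared. Leaving out 1 library gave 1 to 2 in both. With no filter the adjusted p of TFPI was 0.0546 and 0.0563 in these comparisons, and that of TFPI2 in YAP-2SA against Control was 0.0507. Fold changes that changed sign when a library was left out were all past no threshold: TFPI2 (-0.28 to 0.045) in YAP-S127A against Control, PLAT (-0.057 to 0.031), F3 (-0.014 to 0.086), TFPI (-0.009 to 0.22) and F2R (-0.11 to 0.049) in YAP-S127A,S94A against Control, and F2RL1 (-0.005 to 0.29) in YAP-S127A against YAP-S127A,S94A. Of the members' fold changes under alternatives, 628 kept their direction and side of the threshold, 20 lost it, 5 gained it and 6 changed sign. A pseudocount of 0.1 took the log2 fold change of A2M to -3.88, SERPIND1 to -2.47, SERPINA1 to -1.51 and SERPINI1 to -1.50 in YAP-2SA against Control. With an FPKM of at least 5, loci called fell from 2327 to 1202, in YAP-2SA against Control, from 372 to 219 in YAP-S127A against Control, from 1672 to 848 between YAP-2SA and YAP-S127A, and from 525 to 298 between the S127A forms with and without S94A, with fewer loci tested. With only the libraries compared, 244 were called in YAP-S127A against Control. In YAP-S127A,S94A against Control, 26 loci were called, and 17 with a pseudocount of 0.1, 16 or 17 when Control replicate 2 or YAP-S127A,S94A replicate 1 was left out. The cause of these last changes was not tested. Libraries with the same replicate number did not deviate together (correlation of deviations from -0.149 to 0.163, over 0.1 in 2 of 18 pairs), and with the replicate number as a block 4, 2, 0, 4 and 2 members were called in the 5 comparisons, as without the block. Depth is unknown, so how far it limits PLAU and THBD cannot be said.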

Other observations

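The genes of the protease-activated receptors F2R, F2RL1 and F2RL2 lie within 219834 bases of chromosome 5 in GRCh37, and all 3 were called higher in YAP-2SA than in Control. F2RL2 (75911307 to 75919238, minus strand) lies inside IQGAP2 (75699110 to 76003957, plus strand), the other coding gene of that stretch, which encodes a scaffold protein. IQGAP2 was 1.54 ± 0.503 FPKM in Control, 1.51 ± 0.0833 in YAP-S127A, 1.31 ± 0.257 in YAP-S127A,S94A and 1.67 ± 0.243 in YAP-2SA (SD, n = 3), so that its groups overlapped while those of F2RL2 in YAP-2SA and Control did not. This stretch was looked at after the values of the receptors had been seen.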
